A study of Homo sapiens with 36 samples.

Results

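The 10 genes described here have products that switch off or restrain MAP kinase signalling. They are the dual-specificity phosphatases DUSP1, DUSP4, DUSP5, DUSP6, DUSP8, DUSP10 and DUSP16, the Sprouty proteins SPRY2 and SPRY4, and SPRED1. They were taken by gene symbol from a table of 57665 genes, each symbol stood in 1 row, and their values were read in all 12 groups of the study. Of the 10 genes, 7 passed the filter on low counts, by which 19043 genes were tested. DUSP4, DUSP6 and SPRY4 did not pass and are described by their counts only.

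MAP kinases (ERK, p38 and JNK) are active when both a threonine and a tyrosine of their activation loop are phosphorylated. MAP kinase phosphatases remove both phosphates, and several of their genes are themselves transcribed rapidly after growth factors or stress, which closes a negative feedback loop. Sprouty and Spred proteins act further upstream, between receptor tyrosine kinases and the Ras and Raf proteins that feed into ERK.

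All libraries came from U2OS, an osteosarcoma cell line, that stably carries Dmr-PERK, the eIF2α kinase domain of mouse PERK joined to a DmrB domain. The ligand AP20187, called dimerizer, pairs the fusion protein and starts the integrated stress response (ISR), in which phosphorylated eIF2α slows most translation while the transcription factor ATF4 is made. The groups were WT and ATF4KO cells, both with Dmr-PERK, untreated (NT) at 0 h or given dimerizer (Dim, at 1 dose) for 2, 4, 8, 16 or 24 h. Each group had 3 libraries, so 36 in all. No untreated libraries of the later times were among the samples, so dimerizer and time in culture cannot be told apart. The labels do not say whether the ATF4KO line is 1 clone or whether the triplicate wells are separate cultures, and the p-values below measure only the spread between these wells, which may be technical. Total counts ran from 8608783 to 16265056 per library and mitochondrial genes took 4.30 to 5.86%.

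The labels were checked against marker genes and the stress response. All 8 mesenchymal and bone markers were tested, and their summed level stood at 5586 to 5653 CPM in untreated WT and 2367 to 2422 CPM at 24 h (5875 to 5998 and 3311 to 3361 CPM in ATF4KO). CPM are counts scaled to the same TMM-adjusted library size. The epithelial list summed to 508 to 1101 CPM, nearly all from KRT8 and KRT18, and the leukocyte and endothelial list to 2.72 to 11.01 CPM. In the latter list CD68 ranged from 0.248 to 10.2 CPM and VWF from 0 to 5.12 CPM over the libraries. PTPRC and PECAM1 reached 1.08 and 1.30 CPM, and CD3E had 1 count in all 36 libraries. The part of these marker levels in the results below was not tested. ATF4 mRNA was present in the untreated libraries of both genotypes, at 310.1 to 323 CPM in WT and 259 to 274 CPM in ATF4KO, which does not check the allele, since gene counts do not show where the gene was altered. TRIB3, a pseudokinase gene that ATF4 activates, stood at 409.6 to 429 CPM in WT and 40.8 to 42.2 CPM in ATF4KO at 24 h. By the calls defined below, all 6 listed stress response genes, with TRIB3, had risen in WT at 24 h (33% of all genes). In ATF4KO 4 of the 6 had risen (32.4%) and 1 had fallen (33%). The 24 h change was lower in ATF4KO for 5 (12.1%) and higher for 1 (17.7%). Untreated, 5 were lower in ATF4KO (11.9%).

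The members that passed the filter lie, by GENCODE 29 on GRCh38, at chr5:172768090-172771195 (DUSP1), chr10:110497838-110511544 (DUSP5), chr11:1554044-1571920 (DUSP8), chr1:221701424-221742176 (DUSP10), chr12:12474210-12562383 (DUSP16), chr13:80335976-80340951 (SPRY2) and chr15:38252326-38357249 (SPRED1). DUSP5 and SPRED1 are on the plus strand and the other 5 on the minus strand.

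Promoter sequences of the members were searched for short elements, and the part of these elements in the courses below was not tested. RefSeq windows on GRCh38.p14 of 300 bases (250 before and 50 after an annotated start) were found for 8 of the 10 genes, as 11 windows in all. DUSP4 and DUSP5 were not searched. The cAMP response element TGACGTCA, a palindrome bound by CREB and ATF family factors, was searched on both strands. It stood in 649 of all 35116 windows (1.85%), and among the members in DUSP1 (once, starting at position -125 from the start) and DUSP8 (at -118 and -74). The bases before the start are shown for these 2 genes, with the element in capitals, for DUSP1 from chr5:172771196-172771445 and for DUSP8 from chr11:1572272-1572521, both on the minus strand.
DUSP1: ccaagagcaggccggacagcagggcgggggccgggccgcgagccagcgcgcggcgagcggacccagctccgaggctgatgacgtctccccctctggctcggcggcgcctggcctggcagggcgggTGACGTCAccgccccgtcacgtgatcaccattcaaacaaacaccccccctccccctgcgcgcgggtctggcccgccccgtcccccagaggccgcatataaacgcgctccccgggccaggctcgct
DUSP8: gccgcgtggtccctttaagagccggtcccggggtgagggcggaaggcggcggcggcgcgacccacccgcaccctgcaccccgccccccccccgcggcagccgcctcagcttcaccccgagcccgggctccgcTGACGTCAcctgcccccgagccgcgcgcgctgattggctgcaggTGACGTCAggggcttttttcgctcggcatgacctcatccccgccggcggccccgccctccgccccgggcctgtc
A match is a description of the letters and no measure of binding. The bases shown were 74.4% GC for DUSP1 and 76.8% for DUSP8, where the median over all 300-base windows was 58.7%. The share over all windows was not matched for GC. The RefSeq start used for DUSP8 lies upstream of the GENCODE start of the gene given above (chr11:1571920). Its positions -118 and -74 count from the RefSeq start. For DUSP1 both annotations give the same start.

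No member window held TGACTCA or TGAGTCA (the AP-1 element, in 4.95% of all windows), TGATGNAA (the C/EBP-ATF composite element of stress genes, 3.62%), CCGGAAGT (an ETS element, 4.14%) or a CArG box (the serum response element core, 1.29%). All 4 were searched on both strands, and these windows do not cover enhancers or introns.

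After 2 h of dimerizer 5 of the 7 tested members had risen in both genotypes: DUSP1, DUSP5, DUSP8, DUSP10 and DUSP16, that is, all 5 tested phosphatases. SPRY2 was the 1 member that fell in each. By 16 h 5 of 7 were lower than at 0 h in WT and 4 of 7 in ATF4KO, with DUSP5 and SPRY2 the furthest down. The plot of levels by time shows the rise of the phosphatases at 2 h, the later second rise of DUSP16, the long fall of DUSP5 and SPRY2, and the peak of SPRED1 at 8 h.

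**Figure D1:**
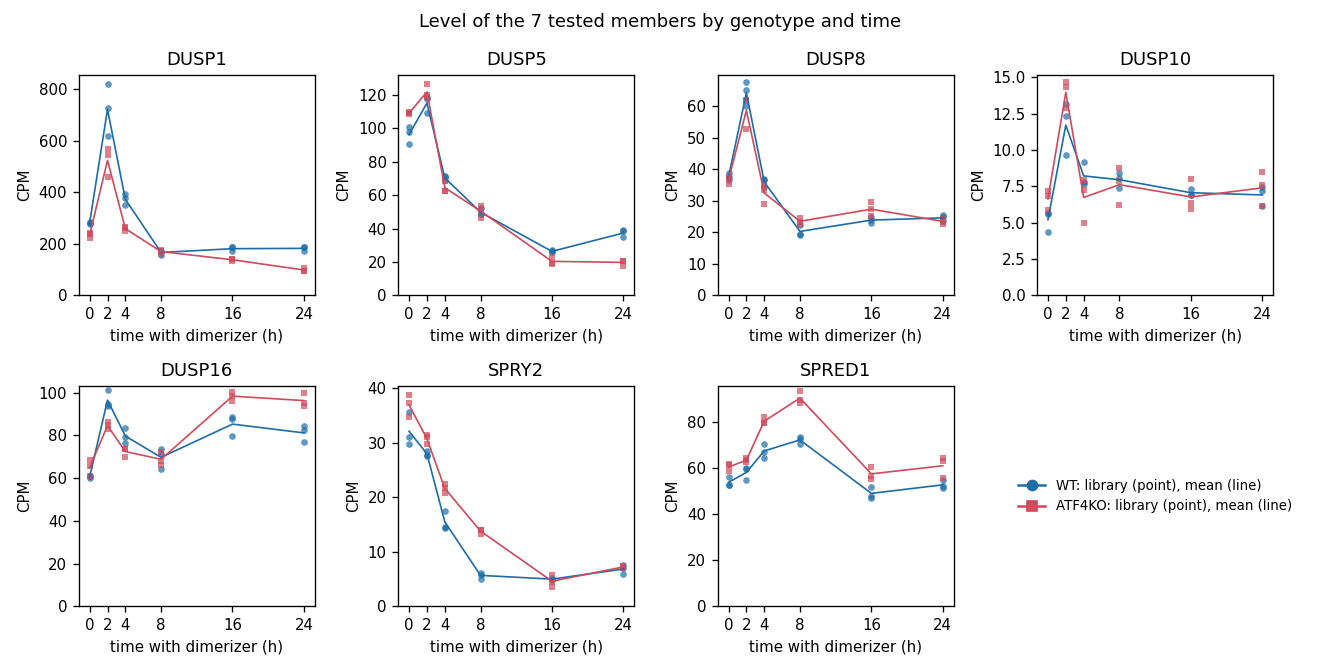
Level of each tested member in CPM (y axis, from 0) against hours of dimerizer (x axis) in WT (circles) and ATF4KO (squares), with each point a library and each line the mean of 3. DUSP1 peaked at 2 h at a mean of 722 CPM in WT and 524 CPM in ATF4KO, and SPRY2 in WT reached 5.67 CPM at 8 h from 32.1 CPM at 0 h.

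These counts are to be read against all tested genes. Calls are at an adjusted p below 0.05 (edgeR quasi-likelihood F-test, Benjamini-Hochberg within each comparison). In WT, the members called higher and lower numbered 5 and 1 of 7 at 2 h, where 12.2% and 10.4% of all genes were called higher and lower. They numbered 4 and 2 at 4 h (23.6% and 21.1% of all genes), 3 and 4 at 8 h (29.7% and 29.6%), 2 and 5 at 16 h (33.7% and 32.8%), and 2 and 4 at 24 h (33% and 32.4%). From 8 h on most genes were called in 1 direction or the other, so a call there is common. In ATF4KO the members called higher and lower were 5 and 1 at 2 h (9.85% and 8.5% of all genes), 2 and 3 at 4 h (22.1% and 20.3%), and 1 and 4 at 8 h (30.7% and 31.1%), 16 h (33% and 32.7%) and 24 h (32.4% and 33%). The median log2 change of the tested members was 0.67 in WT and 0.38 in ATF4KO at 2 h, and -0.64 and -0.43 at 16 h. The median over all tested genes was -0.0060 and -0.012 at 2 h and -0.019 and -0.028 at 16 h.

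DUSP1, a nuclear phosphatase that acts on p38, JNK and ERK, was the member with the most counts. Its fitted log2 rise at 2 h was the largest in both genotypes, which was not tested against that of DUSP10. In WT DUSP1 stood at 281, 277 and 287 CPM untreated and at 620, 726 and 820 CPM at 2 h. It was back to 350.2, 392 and 377 CPM at 4 h and then lay below the untreated level, at 159, 169.8 and 171 CPM at 8 h and 172, 189 and 187 CPM at 24 h. The 2 h libraries were all above every other WT library. The log2 change was 1.36 ± 0.06 (SE; adjusted p = 1.05e-20), a 2.56-fold rise, at 2 h and 0.40 ± 0.07 at 4 h, and then -0.76 ± 0.07 at 8 h and -0.63 ± 0.07 at 24 h, all called.

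In ATF4KO DUSP1 started lower, at 222, 238 and 243 CPM, a log2 difference from untreated WT of -0.26 ± 0.07 (adjusted p = 0.00241). It reached 458, 546 and 569 CPM at 2 h, a log2 change of 1.16 ± 0.06, and stood at 248, 266 and 263 CPM at 4 h, where its change from 0 h of 0.14 ± 0.07 was not called (adjusted p = 0.10). That change was called in 3 other fits: with the replicate number as a block (adjusted p = 0.0340), with only the 2 groups compared (0.00329) and with no filter (0.00154). WT had means of 167, 181 and 183 CPM at 8, 16 and 24 h. ATF4KO libraries stood at 143, 140.2 and 132 CPM at 16 h and at 96.1, 95.3 and 105 CPM at 24 h. The fall from 16 to 24 h was called in ATF4KO (log2 change -0.49 ± 0.08, adjusted p = 1.30e-05). The WT step was not called, and the difference between the 2 steps was not tested. At 24 h the mean in ATF4KO was 0.540 of that in WT.

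DUSP5, a nuclear phosphatase selective for ERK, rose little and then fell far. In WT its libraries stood at 97.9, 90.2 and 100.4 CPM untreated and at 118, 109 and 118 CPM at 2 h, above all untreated ones. They then stood at 68.9, 71.1 and 70.7 CPM at 4 h, 52.0, 48.7 and 48.5 CPM at 8 h and 25.8, 26.9 and 26.3 CPM at 16 h. The level came partly back at 24 h, to 38.8, 34.8 and 38.4 CPM. Each of these groups was separate from the next.

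The log2 change of DUSP5 in WT was 0.25 ± 0.05 at 2 h (adjusted p = 6.42e-05), -0.96 ± 0.05 at 8 h, -1.87 ± 0.06 at 16 h (adjusted p = 1.03e-28) and -1.38 ± 0.06 at 24 h, and the rise from 16 to 24 h was 0.50 ± 0.07 (adjusted p = 6.48e-07). ATF4KO libraries stood at 18.7, 22.9 and 19.5 CPM at 16 h and overlapped that at 24 h, with 20.7, 17.8 and 20.8 CPM. That step was not called, and its difference from the WT step was not tested. From an untreated level of 108.8, 108 and 109 CPM, 0.17 ± 0.05 above WT on the log2 scale (adjusted p = 0.00475), ATF4KO reached a change of -2.44 ± 0.06 at 16 h and -2.47 ± 0.06 at 24 h. The small rise at 2 h in ATF4KO, 0.16 ± 0.05 (adjusted p = 0.0144), was not called without replicate 1 of the 2 h group (0.14, adjusted p = 0.0652).

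DUSP8, which acts on JNK and p38, had a sharp peak at 2 h like that of DUSP1. WT libraries went from 37.5, 38.7 and 36.5 CPM to 60.0, 67.5 and 65.2 CPM at 2 h, returned to 34.4, 37.0 and 36.6 CPM at 4 h and stood at 19.6, 22.2 and 19.0 CPM at 8 h. DUSP8 rose by 0.78 ± 0.06 on the log2 scale at 2 h (adjusted p = 6.93e-14) and was at -0.88 ± 0.08 by 8 h (adjusted p = 1.47e-13), and at 4 h the libraries overlapped the untreated ones. In ATF4KO it went from 35.3, 36.8 and 37.6 CPM to 52.7, 61.5 and 61.8 CPM at 2 h, a change of 0.68 ± 0.06, and to 23.3, 24.5 and 22.7 CPM at 8 h, a change of -0.65 ± 0.07. Untreated libraries of the genotypes overlapped. The ATF4KO fall at 4 h, -0.19 ± 0.07 (adjusted p = 0.0275), was not called with no filter (adjusted p = 0.0552), nor without untreated replicate 2 (-0.17, adjusted p = 0.0787), untreated replicate 3 (-0.16, 0.120) or 4 h replicate 1 (-0.10, 0.306).

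DUSP10, another phosphatase of JNK and p38, was measured at a few CPM. WT libraries stood at 5.67, 4.33 and 5.62 CPM untreated and at 9.65, 13.1 and 12.3 CPM at 2 h. At 24 h they stood at 7.16, 7.42 and 6.15 CPM, still above every untreated one. The log2 change in WT was 1.16 ± 0.14 at 2 h (adjusted p = 1.88e-08), 0.63 ± 0.16 at 4 h and 0.60 ± 0.16 at 8 h. The later changes, 0.42 ± 0.15 at 16 h and 0.40 ± 0.16 at 24 h, rested on few libraries. Without untreated WT replicate 2, the lowest, they were 0.32 (adjusted p = 0.0812) and 0.30 (0.114), and the 24 h change was also not called without replicate 1 (0.38, adjusted p = 0.0662) or replicate 2 (0.34, 0.106) of that time.

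In ATF4KO DUSP10 went from 6.86, 5.87 and 7.17 CPM to 12.9, 14.3 and 14.7 CPM at 2 h, which is 1.07 ± 0.14 on the log2 scale (adjusted p = 1.40e-07), and no later change from 0 h was called. At 4 h its libraries stood at 7.27, 7.92 and 5.01 CPM and overlapped the untreated ones. The step from 2 to 4 h was -1.04 ± 0.14 in ATF4KO and -0.54 ± 0.14 in WT, both called. The difference between these steps was not tested. Untreated ATF4KO libraries lay above all untreated WT ones, a log2 difference of 0.34 ± 0.16 that was not called (adjusted p = 0.131). At each later time the genotypes overlapped. The ATF4KO change minus the WT change was not called at 8, 16 or 24 h (adjusted p = 0.222, 0.243 and 0.418).

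DUSP16, a JNK-directed phosphatase, rose at 2 h and again late. WT libraries stood at 61.0, 60.8 and 60.2 CPM untreated, 101.3, 93.8 and 94.6 CPM at 2 h, 64.4, 73.6 and 71.3 CPM at 8 h and 87.7, 79.8 and 88.5 CPM at 16 h. All later libraries were above the untreated ones. The log2 change was 0.67 ± 0.05 at 2 h (adjusted p = 1.76e-14), 0.21 ± 0.05 at 8 h and 0.49 ± 0.05 at 16 h, and the step from 8 to 16 h was 0.29 ± 0.05 (adjusted p = 4.37e-06).

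In ATF4KO the later peak of DUSP16 was the higher: 86.1, 83.0 and 84.7 CPM at 2 h and 100.3, 96.3 and 98.6 CPM at 16 h, from 65.7, 68.4 and 60.8 CPM untreated. It rose by 0.38 ± 0.05 on the log2 scale at 2 h (adjusted p = 2.12e-07), and the 16 h level was 0.61 ± 0.05 above 0 h (adjusted p = 2.43e-14). The 2 h and 16 h levels were not tested against each other. Its change in ATF4KO minus that in WT was not called at 16 h (0.11 ± 0.07, adjusted p = 0.244) or 24 h (0.15 ± 0.07, 0.114). The 4 h change, 0.16 ± 0.05 (adjusted p = 0.0111), was not called without untreated replicate 3 (0.11, adjusted p = 0.119) or 4 h replicate 2 (0.14, 0.0567).

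SPRY2, the Sprouty member that passed the filter, which restrains receptor tyrosine kinase signalling to ERK, fell further than any other tested member at 8 h in both genotypes. WT libraries stood at 29.7, 31.0 and 35.7 CPM untreated, 28.6, 27.8 and 27.6 CPM at 2 h, 14.6, 17.6 and 14.3 CPM at 4 h and 5.05, 6.17 and 5.80 CPM at 8 h. They stayed low at 16 h (4.84, 4.94 and 5.18 CPM) and 24 h (7.59, 5.92 and 6.997 CPM). The log2 change was -1.06 ± 0.08 at 4 h, -2.49 ± 0.10 at 8 h (adjusted p = 3.73e-24) and -2.68 ± 0.09 at 16 h, where the fitted level was 0.156 of that at 0 h. The change at 2 h, -0.20 ± 0.07 (adjusted p = 0.0290), was small. It was not called by DESeq2 (adjusted p = 0.0512), with no filter (0.0791), with only the 2 groups compared (0.0609), without untreated replicate 3 (-0.12, 0.317), or without 2 h replicate 2 (-0.20, 0.0816) or 3 (-0.19, 0.0856).

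The level stayed higher at 8 h in ATF4KO. From 38.8, 37.3 and 34.8 CPM untreated, SPRY2 stood at 21.6, 22.4 and 20.8 CPM at 4 h and 14.0, 14.1 and 13.3 CPM at 8 h, where the lowest ATF4KO library was above every WT one and the mean was 2.43 times that of WT. By 16 h the libraries stood at 4.52, 5.75 and 3.54 CPM and overlapped WT. The log2 change was -1.42 ± 0.08 at 8 h and -3.002 ± 0.10 at 16 h. The step from 8 to 16 h was -1.59 ± 0.12 in ATF4KO (adjusted p = 9.30e-15) and was not called in WT, and the difference between the 2 steps was not tested.

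The higher untreated level of SPRY2 in ATF4KO, 0.19 ± 0.07 (adjusted p = 0.0348), was not called by DESeq2 (adjusted p = 0.0828), with no filter (0.0816) or with only these groups (0.0574). It was also not called without ATF4KO replicate 1 (0.16, adjusted p = 0.128) or 2 (0.19, 0.0842), or without WT replicate 1 (0.14, 0.229) or 2 (0.18, 0.0891). A late partial return in level from 16 to 24 h was called in both genotypes, 0.44 ± 0.13 in WT (adjusted p = 0.0148) and 0.66 ± 0.14 in ATF4KO (adjusted p = 5.03e-04). The WT step was not called without 24 h replicate 1 (0.35, adjusted p = 0.131) or with no filter (0.42, 0.0591).

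SPRED1, which brings neurofibromin to the membrane to switch off Ras, had its highest mean at 8 h in both genotypes. WT libraries stood at 56.2, 52.4 and 52.4 CPM untreated, 67.0, 64.4 and 70.5 CPM at 4 h, 72.5, 73.4 and 70.3 CPM at 8 h and 51.7, 47.0 and 47.9 CPM at 16 h. The log2 change was 0.33 ± 0.05 at 4 h and 0.42 ± 0.05 at 8 h (adjusted p = 1.31e-09). In ATF4KO SPRED1 went from 61.4, 58.4 and 61.1 CPM untreated to 79.2, 79.2 and 82.2 CPM at 4 h and 93.3, 89.4 and 87.8 CPM at 8 h, a log2 change of 0.41 ± 0.05 and 0.58 ± 0.05 (adjusted p = 3.20e-14 at 8 h). It came down from 8 to 16 h in both genotypes, by a log2 change of -0.56 ± 0.05 in WT and -0.66 ± 0.05 in ATF4KO.

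ATF4KO libraries of SPRED1 were above all WT libraries of the same time at each of the 6 times, and no difference in its change from 0 h was called. The untreated difference, 0.17 ± 0.05 (adjusted p = 0.0128), was not called without replicate 3 of ATF4KO (0.15, adjusted p = 0.0761) or of WT (0.14, 0.0758). The WT level at 16 h was -0.14 ± 0.05 against 0 h (adjusted p = 0.0155), which was not called with no filter (-0.12, adjusted p = 0.109), without untreated replicate 1 (-0.11, 0.104), or without 16 h replicate 2 (-0.11, 0.0828) or 3 (-0.12, 0.0751).

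**Figure D2:**
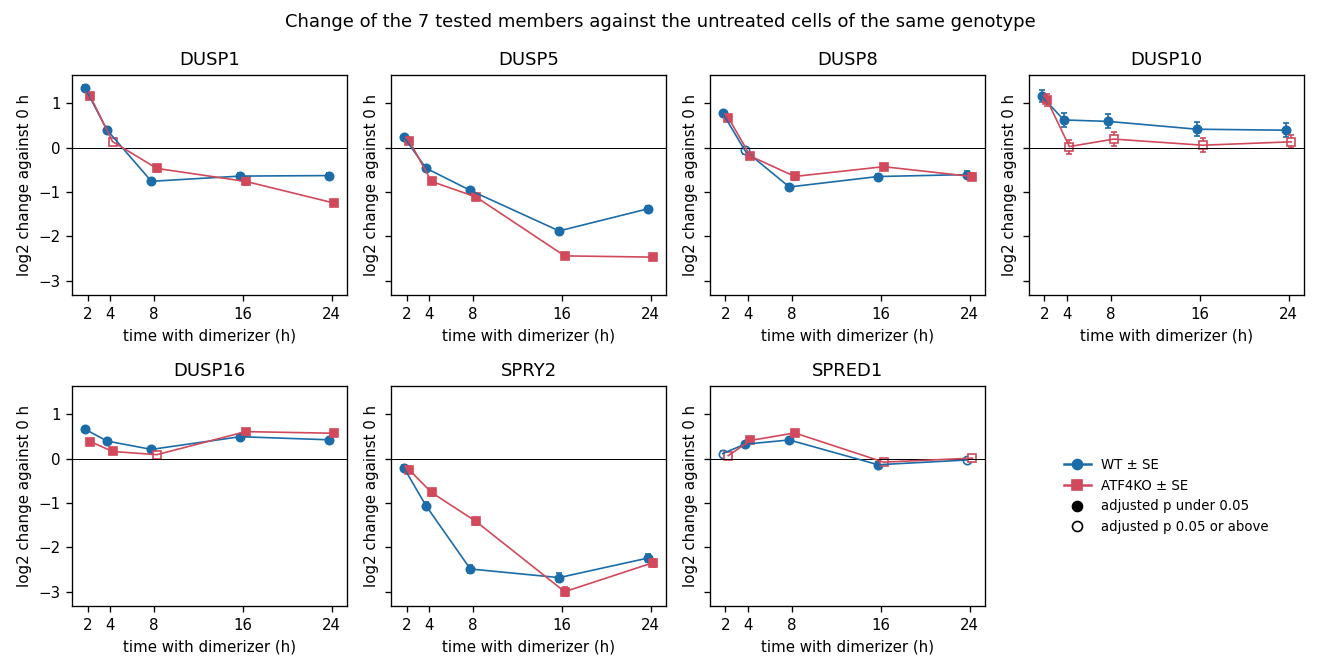
Fitted log2 change (y axis, ± SE) of each tested member against the untreated libraries of its own genotype at 2 to 24 h of dimerizer (x axis), with filled points at an adjusted p under 0.05. DUSP1, DUSP8 and DUSP10 rose at 2 h in both genotypes, and DUSP5 and SPRY2 ended at -1.38 and -2.24 in WT and at -2.47 and -2.35 in ATF4KO.

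Between 2 and 4 h all 7 tested members changed in each genotype. The other 6 fell and SPRED1 rose, in WT (19.4% of all genes were higher and 17.3% lower) and in ATF4KO (17.6% and 16%). The step was largest for DUSP1 in WT, -0.96 ± 0.06, and among the largest in ATF4KO at -1.02 ± 0.07, where DUSP10 stood at -1.04 ± 0.14. From 4 to 8 h 5 of 7 changed in each genotype (36% of all genes in either direction in WT and 43.5% in ATF4KO). From 8 to 16 h 4 of 7 changed in WT (47.8% of all genes) and 6 of 7 in ATF4KO (52%). From 16 to 24 h 2 of 7 changed in WT (16.3%) and 3 of 7 in ATF4KO (17.6%). The steps of DUSP8 after 8 h were small: 0.24 ± 0.08 in WT and 0.22 ± 0.08 in ATF4KO from 8 to 16 h, and -0.22 ± 0.08 in ATF4KO from 16 to 24 h. Each was lost without 1 of several libraries. In WT that held without 8 h replicate 3 (0.18, adjusted p = 0.113) or 16 h replicate 3 (0.21, 0.0592). In ATF4KO the first step was lost without 8 h replicate 3 (0.19, 0.0692) or 16 h replicate 2 (0.17, 0.0989). The second was lost without 16 h replicate 1 (-0.22, 0.108) or 2 (-0.17, 0.188), without 24 h replicate 2 (-0.20, 0.132) or 3 (-0.22, 0.0963), with DESeq2 (0.0555) and with no filter (0.0755).

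The difference between the genotypes was tested as the ATF4KO change minus the WT change, all 5 times sharing the untreated libraries. At 2 h no member differed (0 of 7, where 0.0105% of all genes had a higher and 0.289% a lower change in ATF4KO). At an unadjusted p under 0.05, edgeR would pass 2 of 7 there, DUSP1 and DUSP16, and 1425 of all 19043 genes. DUSP16 had a 2 h difference of -0.28 ± 0.07 (adjusted p = 0.0695), which was called without untreated ATF4KO replicate 3 (-0.33, adjusted p = 0.0259) and with no filter (0.0397), and DESeq2 called 0 members at 2 h.

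At 4 h DUSP5 alone had a lower change in ATF4KO, by -0.30 ± 0.07 (adjusted p = 0.0104; 1 of 7 members lower and 0 higher, against 2.39% and 0.887% of all genes). The 4 h difference of DUSP16 was -0.24 ± 0.07 (adjusted p = 0.0699), called without untreated ATF4KO replicate 3 (-0.28, adjusted p = 0.0232) or WT 4 h replicate 2 (-0.26, 0.0485). That of DUSP1 was -0.26 ± 0.09 (adjusted p = 0.141), called with no filter (1.65e-04) and with only the 4 groups involved (0.00319). The largest in size was DUSP10 at -0.60 ± 0.22, not called at these counts (adjusted p = 0.170).

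At 8 h the change of SPRY2 was higher in ATF4KO by 1.07 ± 0.14 (adjusted p = 6.03e-08), and leaving out any 1 library kept that call. DUSP1 was higher by 0.29 ± 0.10 (adjusted p = 0.0342), so 2 of 7 members were higher and 0 lower, where 11.3% and 6.99% of all genes were. The DUSP1 call ended without any 1 of 9 of the 12 libraries behind it. Without ATF4KO untreated replicate 1 or 2 it was 0.23 (adjusted p = 0.143) or 0.27 (0.0853), and without ATF4KO 8 h replicate 2 or 3 it was 0.23 (0.151) or 0.28 (0.0648). Without WT untreated replicate 1, 2 or 3 it was 0.26 (0.0993), 0.27 (0.0782) or 0.28 (0.0580), and without WT 8 h replicate 1 or 3 it was 0.23 (0.154) or 0.27 (0.0835). DUSP8 had a similar difference of 0.24 ± 0.10 that was not called (adjusted p = 0.116).

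At 16 h DUSP5 was lower by -0.56 ± 0.09 (adjusted p = 4.73e-06), the only 1 of 7 members called (11% of all genes lower and 16.7% higher). SPRY2, at -0.32 ± 0.16, was not called (adjusted p = 0.149). At 24 h DUSP5 was lower by -1.09 ± 0.09 (adjusted p = 1.71e-13) and DUSP1 by -0.62 ± 0.10 (adjusted p = 3.93e-06), so 2 of 7 were lower and 0 higher, against 12.1% and 17.7% of all genes. These 3 calls were kept when any 1 library was left out. Among untreated cells DUSP5, SPRY2 and SPRED1 were higher and DUSP1 lower in ATF4KO, 3 and 1 of 7 members, where 11.6% and 11.9% of all genes were higher and lower.

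**Figure D3:**
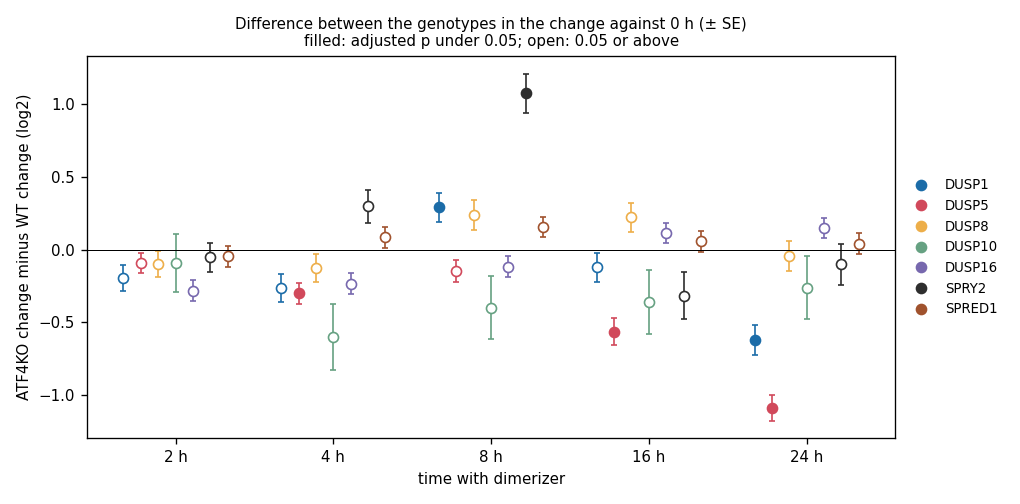
Difference between the genotypes in the log2 change against 0 h (ATF4KO minus WT, ± SE, y axis) for the 7 tested members at each time (x axis), with filled points at an adjusted p under 0.05. SPRY2 stood at 1.07 at 8 h, and at 24 h DUSP5 and DUSP1 stood at -1.09 and -0.62.

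DUSP4, DUSP6 and SPRY4 were scarcely measured in these cells. DUSP6, the cytoplasmic ERK phosphatase, had 198 counts over all 36 libraries, between 1 and 11 in each library, and its highest group mean was 0.599 CPM (WT, 24 h). Untreated WT libraries held 8, 5 and 6 counts of DUSP6 and WT libraries at 2 h held 2, 7 and 8. DUSP4, a nuclear relative of DUSP1, had 46.4 estimated counts in all, with a highest group mean of 0.196 CPM in untreated ATF4KO. SPRY4 had 13.1 in all, with none in the untreated, 16 h and 24 h groups of ATF4KO. A sum of 0 over a group allows up to 3 counts, which is 0.0826, 0.0935 and 0.0777 CPM for those groups, and covers counting error only. At these counts no change of the 3 genes was detectable. With no filter none was called in any of the comparisons.

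Levels of different genes were compared in TPM, which divide by transcript length, in the deposited table and in WT only, since the TPM columns of untreated ATF4KO did not match the counts. At 0 h the order was DUSP1 (mean 218 TPM), DUSP5 (59.9), SPRY2 (22.5), DUSP16 (22.5), DUSP8 (18.8), SPRED1 (11.8), DUSP10 (3.22) and DUSP6 (0.434). SPRY2 and DUSP16 overlapped, and each other neighbour down to DUSP6 was separate. DUSP4 and SPRY4 were at 0.102, the smallest value of the table, in every WT library. At 2 h DUSP1 stood at 572 ± 78.0 TPM (SD, n = 3) and DUSP8 had moved to 35.04 ± 3.18 TPM, level with DUSP16 at 36.5 ± 1.81 TPM. By 16 h SPRY2 (3.497 TPM) was below DUSP10 (4.26 TPM), with no overlap, and DUSP16 (29.8 TPM) was above DUSP5 (16.2 TPM). At 24 h SPRY2 and DUSP10 overlapped again, at 4.79 and 4.53 TPM.

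**Figure D4:**
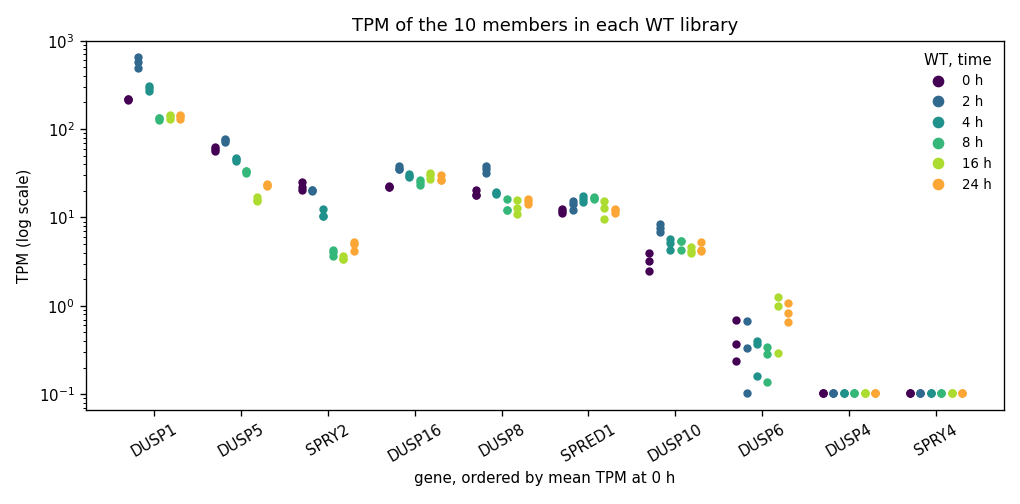
TPM of each member (y axis, log scale) in each WT library, ordered by the mean at 0 h and coloured by time. DUSP1 led at every time, from 131 TPM at 8 h to 572 TPM at 2 h, while DUSP4 and SPRY4 lay at the table's smallest value of 0.102.

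Across the 12 group means of log2 CPM, the closest pairs among the tested members were DUSP1 and DUSP8 (Pearson r 0.916) and DUSP5 and SPRY2 (0.912). Over the 6 times of WT these were 0.977 and 0.935, and over those of ATF4KO the order was the other way, 0.932 and 0.972. DUSP16 ran apart from DUSP5 (-0.47) and SPRY2 (-0.43). These values describe 12 points that share 6 times and the same libraries, and carry no test. Among 16178 other genes that averaged 1 CPM or more, the nearest to DUSP8 were SGK1 (0.973), CCL3L3 (0.966) and BTG2 (0.938), and CCL3L3 (0.942) was also nearest to DUSP1, with ID3 (0.942) and AC131056.3 (0.938). Nearest to DUSP5 were YPEL1 (0.984), CTGF (0.984) and PIP5KL1 (0.983), and to SPRY2 TSPAN6 (0.988), MIDN (0.985) and HNRNPH2 (0.984). DUSP10 was less closely followed, by ZNF226 (0.882), PLK2 (0.865) and TRIM59 (0.862), as was DUSP16, by ZNF331 (0.904), CCDC144NL (0.897) and ZNF79 (0.887). SPRED1 was nearest to TMEM185B (0.982), KBTBD11 (0.972) and MICALCL (0.971).

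The WT and ATF4KO courses of a member had a correlation over the 6 times between 0.733 for DUSP16 and 0.978 for SPRED1.

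The 3 other MAP kinase phosphatases were all tested. DUSP2, a nuclear phosphatase best known from immune cells, fell far: in WT it went from a mean of 419 CPM at 0 h to 534 CPM at 2 h, 34.8 CPM at 8 h and 17.1 CPM at 16 h. Its log2 change was 0.35 ± 0.08 at 2 h, -3.57 ± 0.11 at 8 h and -4.63 ± 0.11 at 16 h in WT. In ATF4KO it was -2.28 ± 0.09 at 8 h, a difference of 1.29 ± 0.15 (adjusted p = 6.75e-09), and -4.57 ± 0.12 at 16 h. DUSP7, a cytoplasmic ERK phosphatase, went opposite ways: from 70.5 to 45.6 CPM at 24 h in WT (log2 change -0.62 ± 0.06) and from 62.4 to 77.2 CPM in ATF4KO (0.31 ± 0.06), a difference of 0.93 ± 0.09 (adjusted p = 6.89e-12). DUSP9, of the same cytoplasmic group, fell by 0.99 on the log2 scale in WT at 24 h, and the difference between the genotypes was 1.05 ± 0.26 (adjusted p = 0.00137). At 8, 16 and 24 h 2 of these 3 genes had a higher change in ATF4KO and 0 a lower one. Among all tested genes 11.3%, 16.7% and 17.7% had a higher and 6.99%, 11% and 12.1% a lower change at those times.

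Of 14 other feedback inhibitors of receptor and Ras signalling 13 were tested. In WT 5 rose and 2 fell at 2 h (12.2% and 10.4% of all tested genes). At 16 h 4 rose and 6 fell (33.7% and 32.8%). In ATF4KO 4 rose and 3 fell at 2 h (9.85% and 8.5%) and 2 rose and 7 fell at 16 h (33% and 32.7%). ERRFI1, an inhibitor of the EGF receptor, differed between the genotypes at 4 h. WT went from a mean of 361 to 818 CPM at 4 h (log2 change 1.18 ± 0.04) and ATF4KO from 310.5 to 329 CPM, a difference of -1.10 ± 0.06 (adjusted p = 2.51e-17). It fell to 111 CPM at 16 h in ATF4KO (-1.48 ± 0.05). SPRED3, a relative of SPRED1, rose at 4 h in both genotypes, by 0.73 ± 0.06 in WT and 0.58 ± 0.06 in ATF4KO. IL17RD, a membrane inhibitor of FGF signalling, fell in both, to -1.91 ± 0.13 in WT and -1.71 ± 0.12 in ATF4KO at 16 h. Of 9 tested atypical dual-specificity phosphatases, 2 rose and 2 fell at 2 h in WT (12.2% and 10.4% of all tested genes). At 16 h in WT 3 rose and 4 fell (33.7% and 32.8%). DUSP18 among them fell at each time in both genotypes.

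**Figure D5:**
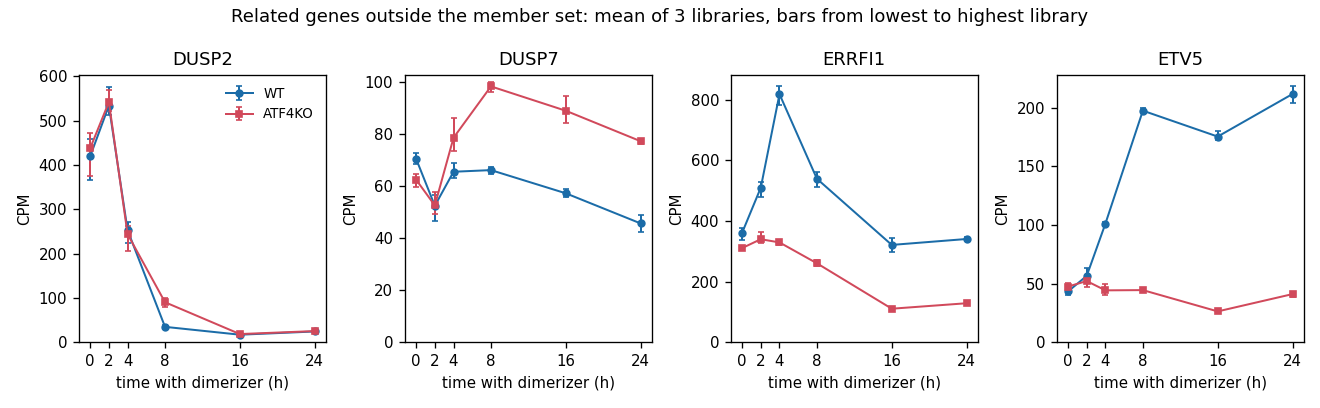
Mean CPM (y axis, from 0) of DUSP2, DUSP7, ERRFI1 and ETV5 against hours of dimerizer (x axis) in WT (circles) and ATF4KO (squares), with bars from the lowest to the highest of 3 libraries. DUSP2 fell in both genotypes, to 34.8 CPM in WT and 90.4 CPM in ATF4KO at 8 h, and ETV5 reached 197 CPM in WT at 8 h and 44.4 CPM in ATF4KO.

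Transcripts commonly induced by ERK were listed as well, and all 18 were tested. In WT 10 rose and 3 fell at 2 h (median log2 change 0.30) and 3 rose and 15 fell at 16 h (median -1.79). In ATF4KO 9 rose and 2 fell at 2 h (median 0.14) and 2 rose and 15 fell at 16 h (median -1.42). Among all tested genes 12.2% rose and 10.4% fell at 2 h in WT, and 9.85% and 8.5% in ATF4KO. The shares at 16 h were 33.7% and 32.8% in WT and 33% and 32.7% in ATF4KO. EGR1, an immediate early transcription factor, rose by 1.72 ± 0.07 in WT and 1.48 ± 0.07 in ATF4KO at 2 h. FOS, another, rose by 1.71 ± 0.08 and 1.30 ± 0.09, and was at -3.83 ± 0.16 and -4.46 ± 0.19 by 16 h. At 8 h 11 of the 18 had a higher and 2 a lower change in ATF4KO, against 11.3% and 6.99% of all genes. HBEGF, an EGF receptor ligand, had a difference of 1.27 ± 0.09 (adjusted p = 1.55e-15). ETV5, an ETS factor downstream of FGF signalling, was the opposite, at -2.28 ± 0.09 (adjusted p = 2.55e-23): it rose by 2.18 ± 0.06 in WT at 8 h.

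Of 24 genes of the Ras to ERK cascade 2 rose and 3 fell in WT at 2 h and 11 rose and 8 fell at 16 h, with medians of 4.80e-04 and 0.026. Of 23 tested genes of the p38 and JNK cascade 3 rose and 4 fell in WT at 2 h. At 16 h 7 rose and 9 fell. In WT 12.2% of all tested genes rose and 10.4% fell at 2 h, and 33.7% and 32.8% at 16 h. MAP2K3, a kinase that activates p38, fell by 1.73 on the log2 scale in WT at 16 h, with a difference of 0.43 ± 0.08 (adjusted p = 5.01e-05). RPS6KA2, an ERK-activated ribosomal S6 kinase, rose by 0.72 ± 0.08 in WT and fell by 2.35 in ATF4KO at 16 h, a difference of -3.08 ± 0.17 (adjusted p = 9.47e-19). Of 25 tested growth factor receptors and ligands 6 rose and 15 fell at 16 h in each genotype. The shares of all tested genes were 33.7% and 32.8% in WT and 33% and 32.7% in ATF4KO. FGF5, a growth factor that signals through FGF receptors, had a higher change in ATF4KO at 8 h by 1.21 ± 0.09, and PDGFRB, a PDGF receptor, fell by 2.65 in ATF4KO at 16 h.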

How the data were processed

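Total RNA from 24-well plates was made into directional libraries and sequenced on a NovaSeq, per the labels' protocols. The submitters' processing notes name FastQC 0.11.5, Salmon 0.9.1 and GRCh38, while for the summing of transcripts to genes and the use of strand the settings are not given. The first deposited table holds expected counts and the other TPM, both made by the authors for the same 36 libraries; 72.0 to 78.9% of count cells were whole (tolerance 1e-06), and these expected counts were rounded to whole numbers before the fit. Total counts of 8608783 to 16265056 set the precision.

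Genes were filtered with filterByExpr by group, scaled by TMM and fitted with a mean per group (12 groups) by edgeR 4.0.16 (quasi-likelihood F-test) in R 4.3.3, with limma 3.58.1 and DESeq2 1.42.0 for alternatives. Adjusted p-values are Benjamini-Hochberg within each of 24 comparisons, called under 0.05. The SE is the size of the log2 change divided by the square root of F. Positions and overlapping genes were read from GENCODE 29, and promoter bases from RefSeq. Antisense genes overlap DUSP1, DUSP6, DUSP8, DUSP16 and SPRY4; their counts in all libraries were 149 for DUSP8 (14734 for the gene itself), 40 for DUSP16 (34289), 13 for DUSP6 (198) and 25 for SPRY4 (13.1), so SPRY4 is uncertain, and the gene opposite DUSP1 was not matched in the table.

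TPM columns matched count columns by name for 33 of 36 libraries (10522 genes of mean CPM of at least 10); the other 3 were those of untreated ATF4KO, with r of 0.914, 0.933 and 0.498 between columns of the same name. TPM therefore served only for the order of levels in WT and as an alternative. All pairs of replicates differed by more than sampling noise (chi-square per degree of freedom 1.34 to 2.63 over 36 pairs).

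Any of the 10 members could be named in a comparison. Of each other list, at most the 3 called genes with the largest change in a comparison, at 1 CPM or more on average, were named, and the 3 genes nearest to each member. The members and lists were chosen with earlier results of these data known. Alternatives were size-factor (RLE) scaling, DESeq2, no filter, only the groups compared, a replicate block, limma on log2(TPM + 1) and log2(TPM + 0.1), and each library left out.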

Additional observations from a re-analysis of the deposited data

Results flagged for a closer look

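For 3 members the change differed between the genotypes by the test of the difference itself (edgeR, ATF4KO change minus WT change, adjusted p under 0.05). For DUSP5 the difference was -0.30 at 4 h, -0.56 at 16 h and -1.09 at 24 h. For DUSP1 it was 0.29 at 8 h and -0.62 at 24 h. The 8 h value was not called without any 1 of 9 of the 12 libraries behind it (adjusted p up to 0.154), and the levels of the genotypes overlapped at that time. For SPRY2 it was 1.07 at 8 h. Each is a difference of 4 groups of 3 libraries, and the times share their untreated libraries.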

How the results depend on the processing

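RLE scaling kept the direction and side of the threshold of all 138 values compared (24 counts of called members and 114 member changes). DESeq2 ended 3 of the changes (SPRY2 in WT at 2 h and between untreated genotypes, and DUSP8 from 16 to 24 h in ATF4KO) and moved no count. Whether the replicate numbers pair the libraries was not settled. Of 36 libraries 20 correlated best with their own number, but in 0 of 19 comparisons did all pairs correlate above 0.1. With the replicate number as a block the number called stayed within 1.5 times in all 24 comparisons, and 1 change became called (DUSP1 in ATF4KO at 4 h, 0.14).

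With no filter the members with a difference in change numbered 2 at 2 h (0 with the filter) and 2 at 4 h (1), and 1 was called from 16 to 24 h in WT (2). With only the groups compared 2 differed at 4 h and 2 at 16 h (1 and 1).

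None of the 3 deposited TPM columns of untreated ATF4KO matched the counts of its own name. Columns 1 and 2 correlated best with other untreated ATF4KO counts and column 3 with untreated WT counts, and all 3 entered every fit with all columns. In column 3 DUSP1 stood at 41.2 TPM, against 188 and 193 TPM in columns 1 and 2 and 216 to 221 TPM in untreated WT. For this gene column 3 was thus not at the untreated WT level. By limma on log2(TPM + 1), calls in WT against 0 h numbered 3 at 4 h, 4 at 8 h, 4 at 16 h and 3 at 24 h (6, 7, 7 and 6 by counts), in ATF4KO 2 at 4 h, 1 at 8 h, 3 at 16 h and 3 at 24 h (5 each), and 0 untreated (4). Differences called numbered 0, 1, 0 and 0 at 4, 8, 16 and 24 h (1, 2, 1 and 2). Steps from 2, 4, 8 and 16 h numbered 4, 2, 2 and 0 in WT, and 4 and 0 from 2 and 4 h and 0 from 16 h in ATF4KO (7, 5, 4 and 2, and 7, 5 and 3). With log2(TPM + 0.1) these counts were alike except 3 for WT 2 to 4 h. With columns 1 and 2 of untreated ATF4KO and without column 3, 3 were called in ATF4KO at 2 h (6) and 3 at 4 h (5), 0 untreated, 0 at 4 h and 1 at 8 h for the differences.

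Signs turned in the following values, given for log2(TPM + 1) and log2(TPM + 0.1) with all columns. In ATF4KO against 0 h these were DUSP1 at 8 h (0.21, 0.22), DUSP5 at 4 h (0.39, 0.42), DUSP8 at 4 h (0.060, 0.065), and SPRY2 at 2 h (0.70, 0.79) and 4 h (0.22, 0.29). For the differences in change they were DUSP1 at 4 h (0.46, 0.47) and 24 h (0.031, 0.032), DUSP5 at 4 h (0.77, 0.82) and 16 h (0.45, 0.47), and SPRY2 at 16 h (0.57, 0.63). Untreated ATF4KO against WT turned for DUSP5 (-0.82, -0.87), SPRY2 (-0.67, -0.76) and SPRED1 (-0.072, -0.079). DUSP8 from 16 to 24 h in ATF4KO (0.030, 0.033), DUSP8 from 8 to 16 h in WT (-0.030, -0.033) and SPRED1 at 16 h in WT (0.059, 0.061) turned as well, the last 3 also with columns 1 and 2 (0.030, -0.030 and 0.059), where the DUSP8 difference at 8 h turned too (-0.15). The values that turned numbered 16 on each scale with all columns and 4 when column 3 was left out. The cause was not tested.

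Leaving out each library in turn, the number of members called ranged as follows. In WT against 0 h it was 5 to 7, 6 to 6, 7 to 7, 6 to 7 and 5 to 6 at 2, 4, 8, 16 and 24 h, and in ATF4KO 5 to 6, 3 to 5, 5 to 6, 5 to 5 and 5 to 5. For the differences it was 0 to 1, 1 to 2, 1 to 2, 1 to 2 and 2 to 2, and untreated 3 to 3. For the steps it was 7 to 7, 5 to 5, 3 to 4 and 1 to 2 in WT, and 7 to 7, 5 to 5, 5 to 6 and 2 to 3 in ATF4KO. Libraries that moved a count by over 1.5 times were untreated ATF4KO replicate 3 (ATF4KO at 4 h, 3; differences at 2 h, 1, and 4 h, 2), WT 4 h replicate 2 (difference at 4 h, 2), ATF4KO 16 h replicate 3 (difference at 16 h, 2), WT 24 h replicate 1 (WT 16 to 24 h, 1) and the 9 libraries named with DUSP1 at 8 h (1). Depth limits DUSP4, DUSP6, SPRY4 and, at a few CPM, DUSP10.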
